A study of Homo sapiens with 15 samples.

Results

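Ribosome biogenesis and nucleolar genes were followed in the human myeloma line MM.1S after treatment with drugs against the histone acetyltransferases CBP and p300. The set was a list of 60 gene symbols, made up of RNA polymerase I genes, rRNA processing factors and nucleolar assembly factors, each matched to a table row by its Ensembl identifier. Of the 60, 59 matched 1 of the 47459 gene rows, and all 59 passed the filter on low values and were among the 16104 genes tested. BOP1 was not matched and was not analysed here. The genes were sorted by known role into 6 groups: RNA polymerase I transcription with 5 genes, small nucleolar ribonucleoproteins (snoRNPs) with 7, the small-subunit processome with 17, late 40S maturation with 5, 60S assembly with 20 and multifunctional nucleolar proteins with 5.

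The study held 15 libraries collected after 6 h, 3 in each of 5 groups. DMSO, the vehicle, served as the control, and the other groups received 100 nM of dCBP-1, 100 nM of A-485, 100 nM of GNE-781, or both inhibitors at 100 nM each (the combination). A-485 blocks the catalytic acetyltransferase site of CBP and p300, and GNE-781 blocks their bromodomain, which binds acetylated lysine. dCBP-1 is a degrader: its bromodomain ligand resembles GNE-781 and is tied to a ligand of cereblon, a ubiquitin ligase component, so that CBP and p300 are sent to the proteasome. The series has no group with a cereblon ligand alone, the amounts of the CBP and p300 proteins were not measured in these files, and all groups come from 1 cell line. In 2 combination libraries the treatment label reads GNE-782 or GNE-783, whereas the title and protocol give GNE-781, which was used here. Nothing in the labels says that libraries of a group came from separate cultures, so the p-values below measure only the spread between these libraries.

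Ribosomes are built in the nucleolus. RNA polymerase I transcribes the long precursor of the 18S, 5.8S and 28S rRNAs, snoRNPs guide its chemical modification, and the small-subunit processome, a large complex around the U3 snoRNA, folds and cleaves its 18S part. Pre-40S and pre-60S particles then mature through separate sets of factors and leave the nucleus. Genes of this pathway are known as growth-related and as targets of MYC, and their transcripts are abundant in fast-growing cells such as myeloma lines.

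Depth was 13.10 to 18.29 M reads per library. The 8 plasma cell and myeloma markers checked were present in every library, whereas T cell, myeloid, epithelial and fibroblast markers were at or near 0 (CD3D was 0 in all 15, and KRT18 reached 24.9 at most). HBB, an erythroid marker, ranged from 26.7 to 150. The summed level of the 8 plasma cell markers was 57810 to 63577 with DMSO, 38520 to 46617 with A-485, 27180 to 30224 with GNE-781, 23013 to 26968 with the combination and 9612 to 11071 with dCBP-1. The summed level of the 8 markers of other cells was 88 to 155, 123 to 164, 79 to 89, 72 to 96 and 63 to 87 in the same order, and within it KRT18 was 0 in all DMSO libraries and 17.0 to 24.9 with dCBP-1. The plasma cell sum was thus lower in every treated group than in DMSO and lowest with dCBP-1, and the part of these shifts in the results below was not tested. Of the DMSO libraries, replicates 1 and 2 differed from all others: 23.1% and 19.7% of their reads were mitochondrial, whereas the third had 16.4% and libraries of treated cells had 14.3% to 17.0%. Thinned to 13.10 M reads, these 2 libraries held 16274 and 17376 detected genes, DMSO replicate 3 held 19678, and libraries of treated cells held 18735 to 20547. The main comparisons with DMSO are therefore also given with DMSO replicate 3 alone, in a fit where that library is assumed to vary like the other groups. The 4 comparisons with DMSO share the 3 DMSO libraries, so their results are not independent of each other.

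The stretches of 250 bases upstream of the start are shown for 4 genes on the plus strand. DDX21, UTP20 and UTP18 hold CACGTG, the E-box to which MYC and its partner MAX are known to bind, and fell with dCBP-1. LYAR, which holds it too and fell more than UTP18, is not shown because another start of the gene lies inside its stretch. PPAN is the member with the largest fall of all. Sequences are from RefSeq, build GRCh38.p14, 5′ to 3′, and capitals mark CACGTG. The windows lie at chr10:68956397-68956646 for DDX21, chr12:101279855-101280104 for UTP20, chr17:51260296-51260545 for UTP18 and chr19:10105973-10106222 for PPAN.
DDX21: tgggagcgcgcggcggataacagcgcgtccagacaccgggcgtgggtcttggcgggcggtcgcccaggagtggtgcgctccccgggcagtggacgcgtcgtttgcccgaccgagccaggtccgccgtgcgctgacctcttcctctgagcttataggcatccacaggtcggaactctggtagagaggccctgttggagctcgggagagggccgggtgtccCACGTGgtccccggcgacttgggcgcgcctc
UTP20: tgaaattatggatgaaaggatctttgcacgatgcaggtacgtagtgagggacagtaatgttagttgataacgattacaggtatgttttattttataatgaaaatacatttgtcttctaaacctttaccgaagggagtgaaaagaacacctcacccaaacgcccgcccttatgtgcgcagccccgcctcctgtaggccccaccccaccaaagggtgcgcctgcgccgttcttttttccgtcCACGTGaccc
UTP18: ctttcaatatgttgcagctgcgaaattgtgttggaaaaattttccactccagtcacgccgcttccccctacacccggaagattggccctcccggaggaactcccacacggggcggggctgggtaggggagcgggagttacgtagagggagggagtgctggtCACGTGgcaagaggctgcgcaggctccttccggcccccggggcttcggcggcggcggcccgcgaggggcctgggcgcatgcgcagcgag
PPAN: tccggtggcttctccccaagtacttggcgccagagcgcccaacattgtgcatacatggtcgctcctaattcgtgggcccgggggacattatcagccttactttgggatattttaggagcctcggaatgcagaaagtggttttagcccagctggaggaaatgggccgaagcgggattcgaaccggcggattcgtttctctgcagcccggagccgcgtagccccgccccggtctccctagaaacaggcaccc
With the last base before the start counted as -1, the motif began at -31 in DDX21, -10 in UTP20 and -89 in UTP18, and the PPAN window held none. RefSeq windows were found for 51 of the 60 genes. CACGTG, which reads the same on both strands, was in the upstream window of 7 of them (13.7%), against 7.73% of all genes with a window. The other 4 were LYAR, UTP4, IMP4 and EBNA1BP2. The median log2 fold change with dCBP-1 was -0.72 over the 7 genes with the motif and -0.75 over the 44 without it, and 4 of the 7 and 35 of the 44 were called lower. The medians with and without the motif thus lay close together.

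Transcripts of the listed ribosome biogenesis genes were mostly lower after dCBP-1, in all 6 role groups. The list was chosen with earlier results of these data known, so its counts do not stand for the whole pathway. Among 105 other ribosome biogenesis factors, described below, 43.8% fell with dCBP-1, with a median log2 fold change of -0.31. Of 59 genes, 46 fell with dCBP-1 against DMSO (limma, Benjamini-Hochberg adjusted p below 0.05), while 18.5% of all genes tested fell. The median log2 fold change was -0.77, with quartiles of -1.33 and -0.47, and the median of all genes tested was 0.07. Of the 46 genes called, 21 had a log2 fold change of -1 or lower. The share of all genes tested that fell this far was not counted. In 47 genes every dCBP-1 library lay below every DMSO library, which held for 22.5% of all genes tested. With DMSO replicate 3 alone, 44 of the 46 still fell and 3 others joined them, and the median was -1.01, where the median of all genes was -0.12.

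Fewer of these genes passed the test with the inhibitors. With A-485 against DMSO, 2 of 59 fell, PPAN and RRP9, where 1.79% of all genes tested fell, and the median was -0.08. With GNE-781, 14 fell against a background of 8.81%, and the median was -0.18. With both inhibitors, 24 fell against a background of 9.6%, and the median was -0.34. The medians of all genes tested were -0.03, 0.07 and 0.09 in the same order. These medians moved with the DMSO libraries. Without DMSO replicate 3 they were 0.03, -0.09 and -0.25 (all genes 0.04, 0.14 and 0.16), so that the A-485 median changed sign, as it did without A-485 replicate 3 (0.0020), and with DMSO replicate 3 alone they were -0.27, -0.35 and -0.54 (all genes -0.19, -0.11 and -0.09).

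No member rose in any of these 4 comparisons by limma. At an unadjusted p below 0.05 the higher genes numbered 0 with A-485, 1 with GNE-781, 1 with the combination and 0 with dCBP-1. Shares of all genes at that level were not counted. edgeR and DESeq2, run on the recovered reads, each called 1 gene higher with GNE-781, RRN3, and none in the other 3. The share of all genes that rose by limma was 0.348% with A-485, 7.82% with GNE-781, 11.4% with the combination and 19.3% with dCBP-1.

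The counts for the inhibitors rested in part on single libraries. With GNE-781 the count of 14 was 7 without GNE-781 replicate 1 and 9 without DMSO replicate 2 or 3. With the combination the count of 24 was 14 without combination replicate 1. With DMSO replicate 3 alone, neither PPAN nor RRP9 nor any other member passed with A-485, 11 fell with GNE-781 and 17 with the combination, and the shares of all genes tested that fell were 0.0373%, 4.5% and 4.84%.

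**Figure D1:**
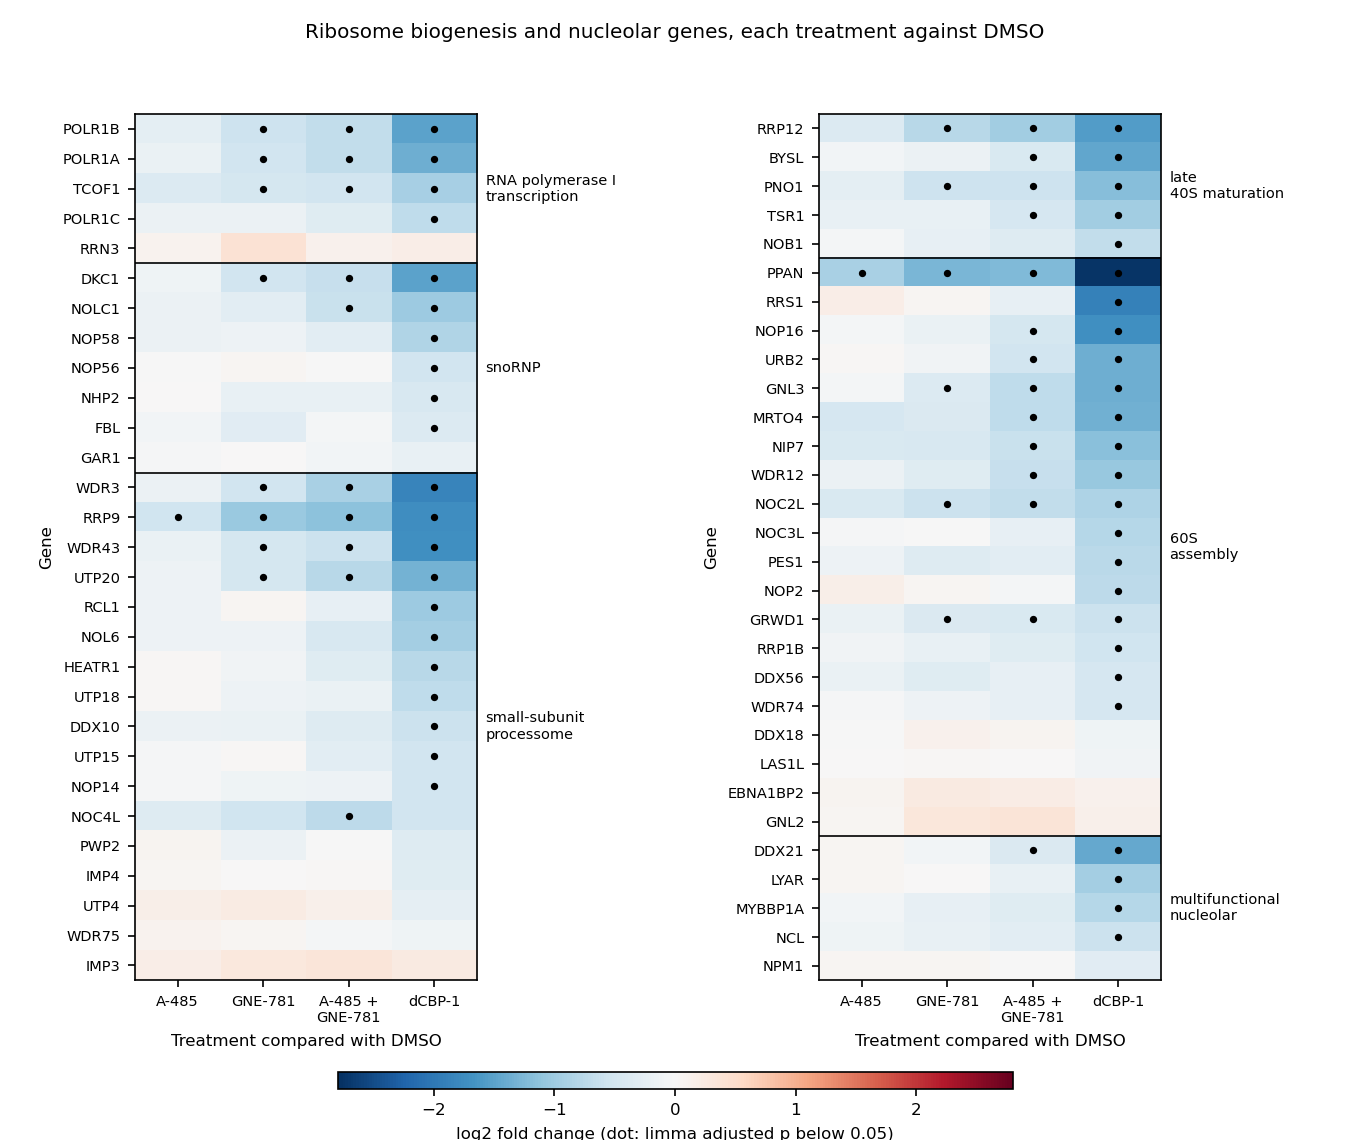
Log2 fold changes of 59 ribosome biogenesis genes (rows, by role) after each of 4 treatments against DMSO (columns); the color gives the log2 fold change and a dot marks a limma adjusted p below 0.05. Dots number 2 with A-485, 14 with GNE-781, 24 with the combination and 46 with dCBP-1, all in the lower direction.

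The summed reads of the 59 genes made up a smaller part of the libraries after dCBP-1. Their share of all reads was 0.792%, 0.827% and 0.944% in the DMSO libraries and 0.584%, 0.577% and 0.629% in the dCBP-1 libraries. It was 0.887%, 0.922% and 0.909% with A-485, 0.831%, 0.829% and 0.800% with GNE-781, and 0.747%, 0.772% and 0.755% with the combination. All 3 dCBP-1 libraries were below the other 12, the 3 combination libraries came next, and the A-485 and GNE-781 libraries lay within the DMSO range. That range includes DMSO replicates 1 and 2, in which 23.1% and 19.7% of reads were mitochondrial, against 14.3% to 17.0% in treated libraries. Every treated library lay below DMSO replicate 3, at 0.944%. Shares without mitochondrial reads were not computed, so the DMSO range cannot show that GNE-781 left the share unchanged. All values here are shares of the reads in a library of bulk RNA, and a share also moves when other reads change. Fewer cells with these transcripts and less of them per cell cannot be told apart.

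Group means were then ranked within each gene. The mean of the dCBP-1 libraries was the lowest of the 5 groups in 54 genes (91.5%), which held for 30.4% of all genes tested. The DMSO mean was the highest in 37 (62.7%, against 31.4%). The full order from DMSO through A-485, GNE-781 and the combination down to dCBP-1 was found in 29 genes (49.2%), against 7.64% of all genes tested. This is an order of means, and neighbouring groups often overlapped, as the values below show. In 12 genes no comparison with DMSO called a fall, and the share of all genes for this was not counted.

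In the paragraphs that follow, levels are the deposited normalized read counts, given for replicates 1, 2 and 3, with group means ± SD (n = 3), and log2 fold changes are given with SE. RNA polymerase I genes were lower with dCBP-1 except for the initiation factor RRN3. The 4 that fell were POLR1B, POLR1A, TCOF1 and POLR1C. POLR1B (ENSG00000125630), the second-largest subunit, had 1094, 964 and 953 in DMSO and 365, 332 and 374 with dCBP-1. It had 640, 691 and 670 with GNE-781, 533, 651 and 685 with the combination, and 963, 748 and 799 with A-485. The GNE-781, combination and dCBP-1 libraries all lay below the DMSO libraries, whereas 1 A-485 library lay among them. The log2 fold change was -1.49 ± 0.14 with dCBP-1 (adjusted p = 7.7e-10), -0.69 ± 0.14 with the combination (adjusted p = 0.00069) and -0.59 ± 0.14 with GNE-781 (adjusted p = 0.0043). With DMSO replicate 3 alone the GNE-781 and combination calls were lost (adjusted p = 0.13 and 0.052), and the dCBP-1 call was kept at -1.42.

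POLR1A (ENSG00000068654), the largest subunit, had 510, 524 and 523 in DMSO, 359, 358 and 354 with GNE-781, 311, 307 and 344 with the combination, and 178, 194 and 234 with dCBP-1. These 4 groups did not overlap. Its log2 fold changes were -0.54 ± 0.15 with GNE-781 (adjusted p = 0.016), -0.70 ± 0.15 with the combination (adjusted p = 0.0016) and -1.37 ± 0.15 with dCBP-1 (adjusted p = 2.9e-08). The GNE-781 call was lost without DMSO replicate 2 (adjusted p = 0.051) and without GNE-781 replicate 1 (0.055) or 2 (0.052), and with DMSO replicate 3 alone (0.145). TCOF1, the treacle protein that brings RNA polymerase I to rDNA, fell by 0.93 on the log2 scale with dCBP-1, and POLR1C, a subunit shared with RNA polymerase III, fell by 0.72. The POLR1C call was lost with DMSO replicate 3 alone (adjusted p = 0.17).

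RRN3 (ENSG00000085721), which tethers RNA polymerase I to its promoter, did not pass the test in any direction. Its levels were 489, 535 and 470 in DMSO, 702, 614 and 678 with GNE-781, and 474, 578 and 674 with dCBP-1. All 3 GNE-781 libraries lay above the DMSO libraries, and the dCBP-1 libraries overlapped them. The log2 fold change was 0.42 ± 0.17 with GNE-781 (adjusted p = 0.087 by limma, 0.043 by edgeR) and 0.19 ± 0.17 with dCBP-1 (adjusted p = 0.38, 95% interval -0.15 to 0.54). Rows of 4 RRN3 pseudogenes held up to 24.8% of the value of RRN3 in a library, so the value of RRN3 is uncertain by the way reads were split between copies.

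Of the 7 snoRNP genes, 6 fell with dCBP-1, 2 with the combination and 1 with GNE-781. DKC1 (ENSG00000130826), the pseudouridine synthase dyskerin of the H/ACA snoRNPs, had 6641, 8092 and 11265 in DMSO. It had 7981, 7667 and 7847 with A-485, 5539, 5871 and 6245 with GNE-781, 4977, 5235 and 6100 with the combination, and 3132, 3032 and 2890 with dCBP-1. The DMSO libraries spread widely, yet the GNE-781, combination and dCBP-1 libraries all lay below the lowest of them. The dCBP-1 log2 fold change was -1.49 ± 0.15 (adjusted p = 1.6e-09), which left 34.8% of the DMSO mean. The GNE-781 fold change of -0.53 (adjusted p = 0.012) lost its call without DMSO replicate 3 (-0.32, adjusted p = 0.069) and without GNE-781 replicate 1 (adjusted p = 0.068).

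NOLC1 (ENSG00000166197), the snoRNP chaperone Nopp140, had 3599, 3212 and 3577 in DMSO, 1811, 2572 and 2473 with the combination and 1581, 1636 and 1967 with dCBP-1. Both treated groups lay below DMSO and overlapped each other. It fell with the combination (-0.61 ± 0.14, adjusted p = 0.0028) and with dCBP-1 (-1.01 ± 0.14, adjusted p = 2.1e-06). The C/D snoRNP core genes fell with dCBP-1 as well, NOP58 by 0.84, NOP56 by 0.54 and FBL, the rRNA methyltransferase fibrillarin, by 0.39 on the log2 scale, and NHP2 of the H/ACA core fell by 0.45. The FBL call was lost in 6 of 17 settings (adjusted p = 0.053 to 0.091), among them without DMSO replicate 2 or 3 and without dCBP-1 replicate 2 or 3. Its value was -0.27 without DMSO replicate 3 and -0.62 with DMSO replicate 3 alone. GAR1 (ENSG00000109534), also of the H/ACA core, had 757, 980 and 1056 in DMSO and 873, 822 and 708 with dCBP-1. These overlapped, and its log2 fold change was -0.21 ± 0.15 (adjusted p = 0.31, 95% interval -0.53 to 0.11). Rows of 3 NOP56 pseudogenes held up to 5.73% of the NOP56 value.

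Small-subunit processome genes divided into 11 that fell with dCBP-1 and 6 that did not pass the test. WDR43 (ENSG00000163811), which acts at the earliest step of the processome, had 4247, 4898 and 5266 in DMSO. It had 4496, 4396 and 3778 with A-485, 3515, 3284 and 3394 with GNE-781, 2833, 3498 and 3202 with the combination and 1352, 1352 and 1646 with dCBP-1. Every dCBP-1 library was below every library of the other groups, and the GNE-781 and combination libraries overlapped below DMSO. The log2 fold change with dCBP-1 was -1.73 ± 0.13 (adjusted p = 5.1e-12), with the combination -0.60 ± 0.13 (adjusted p = 0.0013) and with GNE-781 -0.49 ± 0.13 (adjusted p = 0.0081).

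RRP9 (ENSG00000114767), the protein of the U3 snoRNP that binds U3 itself, was 1 of the 2 genes that fell with all 4 treatments. It had 827, 864 and 747 in DMSO and 507, 566 and 570 with A-485. It had 378, 391 and 418 with GNE-781, 337, 386 and 380 with the combination, and 267, 242 and 221 with dCBP-1. All 12 treated libraries lay below the DMSO libraries, and the means stepped down from 548 with A-485 to 243 with dCBP-1. The log2 fold changes were -0.57 ± 0.14 with A-485 (adjusted p = 0.03), -1.03 ± 0.14 with GNE-781 (adjusted p = 1.1e-05), -1.14 ± 0.14 with the combination (adjusted p = 1.7e-06) and -1.74 ± 0.14 with dCBP-1 (adjusted p = 4.2e-11). The A-485 call was lost without DMSO replicate 1 or 2 (adjusted p = 0.082 and 0.15), with DMSO replicate 3 alone (0.41) and without A-485 replicate 1 (0.088), 2 (0.090) or 3 (0.057). The other 3 calls were kept.

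Other processome genes that fell with dCBP-1 included WDR3, with a log2 fold change of -1.85 ± 0.16 (adjusted p = 1.9e-10) and means of 1027 ± 176 in DMSO and 285 ± 51.9 with dCBP-1, and UTP20, with -1.33 ± 0.14 (adjusted p = 1.6e-08). Both also fell with GNE-781 (-0.54 and -0.50) and with the combination (-0.90 and -0.79). The GNE-781 call of WDR3 was lost without DMSO replicate 2 or 3 (adjusted p = 0.059 and 0.079) and without GNE-781 replicate 1 or 3 (0.10 and 0.059), and that of UTP20 without DMSO replicate 3 (0.054) and without GNE-781 replicate 1 or 3 (0.086 and 0.068). RCL1, NOL6, HEATR1, UTP18, DDX10, UTP15 and NOP14 fell with dCBP-1, with log2 fold changes from -1.01 to -0.54. They did not pass the test with either inhibitor or both. HEATR1 and NOL6 came near it with the combination (-0.34 and -0.44, adjusted p = 0.058 and 0.059 by limma), where every library lay below every DMSO library. The UTP15 call was lost without DMSO replicate 2 (adjusted p = 0.088), without dCBP-1 replicate 1 or 3 (0.077 and 0.051) and with DMSO replicate 3 alone (0.064). WDR75 (ENSG00000115368), which sits in the same early complex as WDR43, had 556, 706 and 861 in DMSO and 710, 654 and 556 with dCBP-1. The groups overlapped fully, with a log2 fold change of -0.13 ± 0.17 (adjusted p = 0.60, 95% interval -0.48 to 0.22). IMP3 had the highest log2 fold change of all members with dCBP-1 at 0.26 (adjusted p = 0.17). PWP2, IMP4 and UTP4 ranged from -0.36 to -0.24 and were not called. With DMSO replicate 3 alone they were at -0.44, -0.65 and -0.55 with dCBP-1.

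NOC4L was the only gene called with the combination and not with dCBP-1. It had 143, 234 and 200 in DMSO, 89.2, 140 and 118 with the combination and 147, 137 and 109 with dCBP-1. The combination libraries lay below DMSO, and 1 dCBP-1 library overlapped it. The log2 fold changes were -0.72 ± 0.22 (adjusted p = 0.019) and -0.54 ± 0.22 (adjusted p = 0.056), and the difference between dCBP-1 and the combination, 0.19 ± 0.22, was not called (adjusted p = 0.78). With DMSO replicate 3 alone the combination call was lost (adjusted p = 0.092), as it was without DMSO replicate 2 (0.12) and without combination replicate 1 (0.11).

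All 5 late 40S maturation genes fell with dCBP-1, 4 with the combination and 2 with GNE-781. RRP12 (ENSG00000052749), needed for export of pre-40S particles, had 828, 1093 and 898 in DMSO and 735, 745 and 677 with A-485. It had 487, 516 and 628 with GNE-781, 492, 503 and 425 with the combination, and 342, 324 and 286 with dCBP-1. All treated libraries lay below DMSO, and the dCBP-1 libraries below all others. The log2 fold changes were -0.38 ± 0.15 with A-485 (adjusted p = 0.19), -0.79 ± 0.15 with GNE-781 (adjusted p = 0.00042), -0.98 ± 0.15 with the combination (adjusted p = 2.1e-05) and -1.56 ± 0.15 with dCBP-1 (adjusted p = 7.9e-10).

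BYSL (ENSG00000112578), the bystin protein of pre-40S particles, was lowest with dCBP-1. It had 639, 643 and 745 in DMSO, 584, 596 and 633 with GNE-781, 488, 444 and 578 with the combination, and 264, 237 and 237 with dCBP-1. The GNE-781 libraries lay just below DMSO, and the dCBP-1 libraries were at 36.4% of the DMSO mean. Its log2 fold change was -1.45 ± 0.14 with dCBP-1 (adjusted p = 2.1e-09) and -0.43 ± 0.14 with the combination (adjusted p = 0.031). The combination call was lost without DMSO replicate 2 (adjusted p = 0.056) or 3 (0.080), with DMSO replicate 3 alone (0.078), and without combination replicate 1 (0.072) or 2 (0.17).

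NOB1 (ENSG00000141101), the endonuclease that makes the 3′ end of 18S rRNA, had 1149, 1036 and 1237 in DMSO and 735, 687 and 688 with dCBP-1, which did not overlap. Its log2 fold change was -0.69 ± 0.14 (adjusted p = 0.00024). The combination value for NOB1, -0.36 ± 0.14, was not called (adjusted p = 0.064). PNO1, the partner of NOB1, fell with GNE-781 (-0.57), the combination (-0.58) and dCBP-1 (-1.20). TSR1, a GTPase-like factor of pre-40S particles, fell with the combination (-0.47) and dCBP-1 (-0.96). The GNE-781 call of PNO1 was lost without DMSO replicate 2 (adjusted p = 0.062), without GNE-781 replicate 1 (0.078) and with DMSO replicate 3 alone (0.085). The combination calls of PNO1 and TSR1 were lost without combination replicate 1 (adjusted p = 0.059 and 0.11) and with DMSO replicate 3 alone (0.071 and 0.13).

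In the 60S assembly group 16 of 20 genes fell with dCBP-1, 9 with the combination and 4 with GNE-781. PPAN (ENSG00000130810), the peter pan homolog that joins early pre-60S particles, had the largest fall of all 59 genes. It had 906, 983 and 782 in DMSO and 134, 135 and 123 with dCBP-1. It had 375, 506 and 549 with A-485, 308, 387 and 411 with GNE-781, and 369, 340 and 432 with the combination. The 3 inhibitor groups overlapped each other, and dCBP-1 lay far below them, at 14.7% of the DMSO mean. The log2 fold changes were -0.91 ± 0.17 with A-485 (adjusted p = 0.0032), -1.27 ± 0.17 with GNE-781 (adjusted p = 4.9e-06), -1.23 ± 0.17 with the combination (adjusted p = 6e-06) and -2.75 ± 0.17 with dCBP-1 (adjusted p = 4.7e-14). With DMSO replicate 3 alone the A-485 value was -0.73 and was not called (adjusted p = 0.24), and the other 3 calls were kept.

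PPAN is transcribed toward its neighbour P2RY11, and read-through transcripts of the pair are known. The row for the read-through gene was listed at 0 in all 15 libraries. P2RY11 itself had 295, 305 and 380 in DMSO and 55.9, 59.8 and 58.1 with dCBP-1. Reads from read-through transcripts that end at P2RY11 cannot be told apart from those of P2RY11 alone.

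NOP16 (ENSG00000048162), a nucleolar 60S factor, had 998, 1017 and 1309 in DMSO, 922, 1055 and 946 with GNE-781, 614, 834 and 935 with the combination and 306, 338 and 353 with dCBP-1. GNE-781 overlapped DMSO, the combination lay below it, and dCBP-1 lay below both. Its log2 fold change was -1.72 ± 0.15 with dCBP-1 (adjusted p = 2.4e-10) and -0.49 ± 0.15 with the combination (adjusted p = 0.022). The combination value was not called without DMSO replicate 3 (-0.36, adjusted p = 0.091) or without combination replicate 1 (-0.32, adjusted p = 0.16).

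RRS1, which helps bring the 5S ribonucleoprotein into the particle, had 515, 532 and 1082 in DMSO and 157, 163 and 218 with dCBP-1. DMSO replicate 3 was about 2 times the other DMSO libraries, and all dCBP-1 libraries were below all 12 others. Its log2 fold change with dCBP-1 was -1.90 ± 0.20 (adjusted p = 7.3e-09), and with DMSO replicate 3 alone it was -2.60. URB2, GNL3 (the GTPase nucleostemin), MRTO4, NIP7 and WDR12 also had log2 fold changes below -1 with dCBP-1, from -1.37 to -1.07, and all 5 were called with the combination too. With DMSO replicate 3 alone the combination calls of URB2, MRTO4, NIP7 and WDR12 were lost (adjusted p = 0.076, 0.061, 0.22 and 0.084), and without combination replicate 1 those of URB2, NIP7 and WDR12 (0.13, 0.11 and 0.062). The call of NIP7 was also lost without DMSO replicate 1 (0.078), and that of URB2 in 7 of 17 settings in all, among them without DMSO replicate 2 (0.060) or 3 (0.084) and without combination replicate 2 (0.13). GNL3 kept its combination call in all of them. With GNE-781, GNL3 was called at -0.39 and GRWD1 at -0.40, but these calls were lost in 9 and 7 of 17 settings. PES1, the scaffold partner of WDR12, fell by 0.75 and NOP2, an rRNA methyltransferase, by 0.74. NOC2L, NOC3L, GRWD1, RRP1B and DDX56 fell with log2 fold changes from -0.86 to -0.47. WDR74 was called at the threshold (-0.46, adjusted p = 0.0498) although its libraries overlapped, with 320, 437 and 668 in DMSO and 303, 347 and 338 with dCBP-1. Its call was lost in 9 of 17 settings. Among them were fits without DMSO replicate 2 (adjusted p = 0.078) or 3 (-0.19, adjusted p = 0.41). Others were fits without dCBP-1 replicate 1, 2 or 3 (0.15, 0.070 and 0.075). With DMSO replicate 3 alone, WDR74 was at -1.02 with dCBP-1, -0.69 with GNE-781 and -0.78 with the combination.

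LAS1L (ENSG00000001497), the endonuclease that cuts the second internal spacer of the precursor, was nearly level. It had 834, 892 and 882 in DMSO and 831, 820 and 793 with dCBP-1, which lay just below. Its log2 fold change was -0.09 ± 0.13 (adjusted p = 0.61, 95% interval -0.36 to 0.18). DDX18, EBNA1BP2 and GNL2 were also not called with dCBP-1, at -0.11, 0.13 and 0.13.

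Of the 5 multifunctional nucleolar proteins, 4 fell with dCBP-1 and 1, DDX21, with the combination. DDX21 (ENSG00000165732), a helicase that links RNA polymerase I transcription and rRNA processing, had 8408, 8075 and 11421 in DMSO. It had 8684, 8819 and 8497 with GNE-781, 5730, 7425 and 7761 with the combination, and 3229, 3324 and 3689 with dCBP-1. GNE-781 lay within the DMSO range, the combination below it, and dCBP-1 at 36.7% of its mean. The log2 fold change was -1.43 ± 0.15 with dCBP-1 (adjusted p = 5.1e-09) and -0.41 ± 0.15 with the combination (adjusted p = 0.046). The combination call was lost without DMSO replicate 3 (-0.25, adjusted p = 0.19) and without combination replicate 1 (-0.28, adjusted p = 0.23) or 2 (-0.46, adjusted p = 0.070).

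LYAR (ENSG00000145220), a nucleolar zinc-finger protein, had 1414, 1758 and 2287 in DMSO and 868, 865 and 1047 with dCBP-1, which did not overlap. Its log2 fold change was -0.95 ± 0.15 (adjusted p = 1.1e-05), and the values for GNE-781 and the combination were 0.01 and -0.20. MYBBP1A, a nucleolar binding protein of MYB, fell by 0.80 and NCL, nucleolin, by 0.59 on the log2 scale with dCBP-1. NPM1 (ENSG00000181163), the nucleolar chaperone nucleophosmin, had 9325, 8498 and 12357 in DMSO and 7860, 7341 and 8778 with dCBP-1. These overlapped, and the log2 fold change of -0.32 ± 0.14 was not called by limma on the deposited scale (adjusted p = 0.082). It was called with TMM scaling (adjusted p = 0.012), by edgeR (0.021), by DESeq2 (0.0062) and with DMSO replicate 3 alone (-0.63, adjusted p = 0.0089). Rows of 45 NPM1 pseudogenes held up to 1.40% of the NPM1 value.

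The smallest calls depended on the fit as well as on single libraries. Fitted on the groups compared only, 18 of the 24 combination calls were kept. Those of BYSL, NOP16 and DDX21 were lost (adjusted p = 0.094, 0.069 and 0.12), as were those of NOC4L, URB2 and GRWD1 (0.064, 0.068 and 0.052). The A-485 call of RRP9 was also lost in that fit (adjusted p = 0.13). Without a filter on low values the combination calls of DDX21 and URB2 were lost (adjusted p = 0.12 and 0.053). POLR1B, POLR1A, DKC1, NOLC1, WDR43, RRP9, RRP12, BYSL, NOB1, PPAN, NOP16, DDX21 and LYAR kept their dCBP-1 calls in all settings run.

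**Figure D2:**
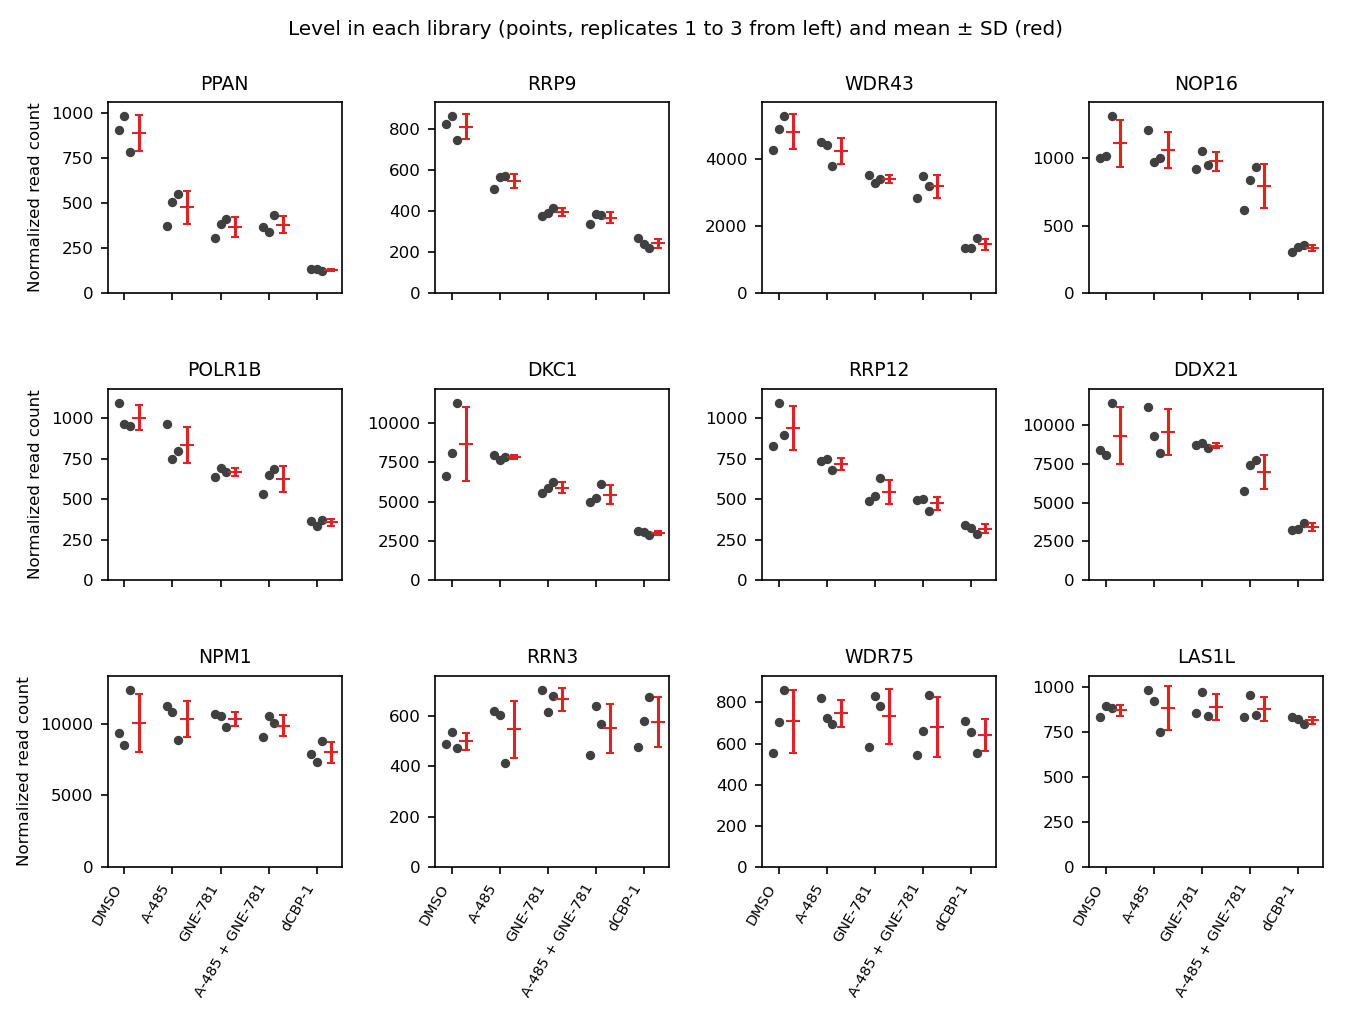
Normalized read counts (y axes, linear, from 0) of 12 genes in each of 15 libraries by treatment (x axis); points are libraries and red marks are mean ± SD. PPAN is at 131 ± 6.47 with dCBP-1 against 890 ± 102 in DMSO, while RRN3 with dCBP-1 and WDR75 overlap their DMSO libraries, LAS1L with dCBP-1 lies just below them, and RRN3 with GNE-781 lies above them.

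The degrader was then set directly against the inhibitors at the same dose and time. These fold changes use no DMSO library, but the spread was estimated over all 15 libraries, DMSO included. Against both inhibitors together, 26 of 59 genes were lower with dCBP-1, where 5.61% of all genes tested were lower. The median log2 fold change was -0.43, and that of all genes was -0.03. The largest differences were in RRS1 (-1.68 ± 0.20, adjusted p = 3.3e-07), PPAN (-1.53 ± 0.17, adjusted p = 6.4e-08), NOP16 (-1.23 ± 0.15, adjusted p = 7.2e-07), WDR43 (-1.13 ± 0.13, adjusted p = 1.4e-07), BYSL (-1.02 ± 0.14, adjusted p = 5.8e-06) and DDX21 (-1.02 ± 0.15, adjusted p = 9.7e-06). In 40 genes all dCBP-1 libraries lay below all combination libraries, which held for 14.3% of all genes tested. Without combination replicate 2 the count of 26 was 15. Fitted on the groups compared only, without DMSO, 23 of the 26 calls were kept and 0 were added.

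By role, the genes lower with dCBP-1 than with the combination were 2 of 5 in RNA polymerase I transcription, 3 of 7 in snoRNPs, 7 of 17 in the processome, 4 of 5 in late 40S maturation, 8 of 20 in 60S assembly and 2 of 5 among multifunctional proteins. The remaining 33 were not called, among them GRWD1, at -0.17, and NOC2L, at -0.18. Both had been called lower than DMSO with the combination, a call that GRWD1 lost in 4 of 17 settings (adjusted p = 0.052 to 0.11). For LAS1L the difference was -0.10, with a 95% interval of -0.37 to 0.17, and for RRN3 it was 0.06, with an interval of -0.28 to 0.41.

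Against GNE-781, whose bromodomain ligand dCBP-1 resembles, 36 of 59 genes were lower with dCBP-1, where 7.13% of all genes tested were lower. The median was -0.58, and that of all genes was -0.01. In 46 genes all dCBP-1 libraries lay below all GNE-781 libraries, which held for 16.9% of all genes tested. Fitted on the groups compared only, all 36 calls were kept and 6 were added. RRS1 (-1.96 ± 0.20, adjusted p = 1.4e-08), NOP16 (-1.55 ± 0.15, adjusted p = 8e-09), PPAN (-1.48 ± 0.17, adjusted p = 9.2e-08), DDX21 (-1.35 ± 0.15, adjusted p = 5.2e-08) and WDR3 (-1.30 ± 0.16, adjusted p = 6e-07) differed most. UTP4, which was not called against DMSO, was lower with dCBP-1 than with GNE-781 (-0.48), but lost that call in 7 of 16 settings, among them without GNE-781 replicate 1, 2 or 3 (adjusted p = 0.15, 0.077 and 0.080) and without dCBP-1 replicate 1 or 2 (0.15 and 0.11). For FBL the difference was -0.07, with a 95% interval of -0.35 to 0.20, and the 2 compounds were not told apart there. No gene was higher with dCBP-1 in either comparison by limma, none at an unadjusted p below 0.05, and none by edgeR or DESeq2. Of all genes tested, 0.553% were higher against the combination and 2.19% against GNE-781.

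**Figure D3:**
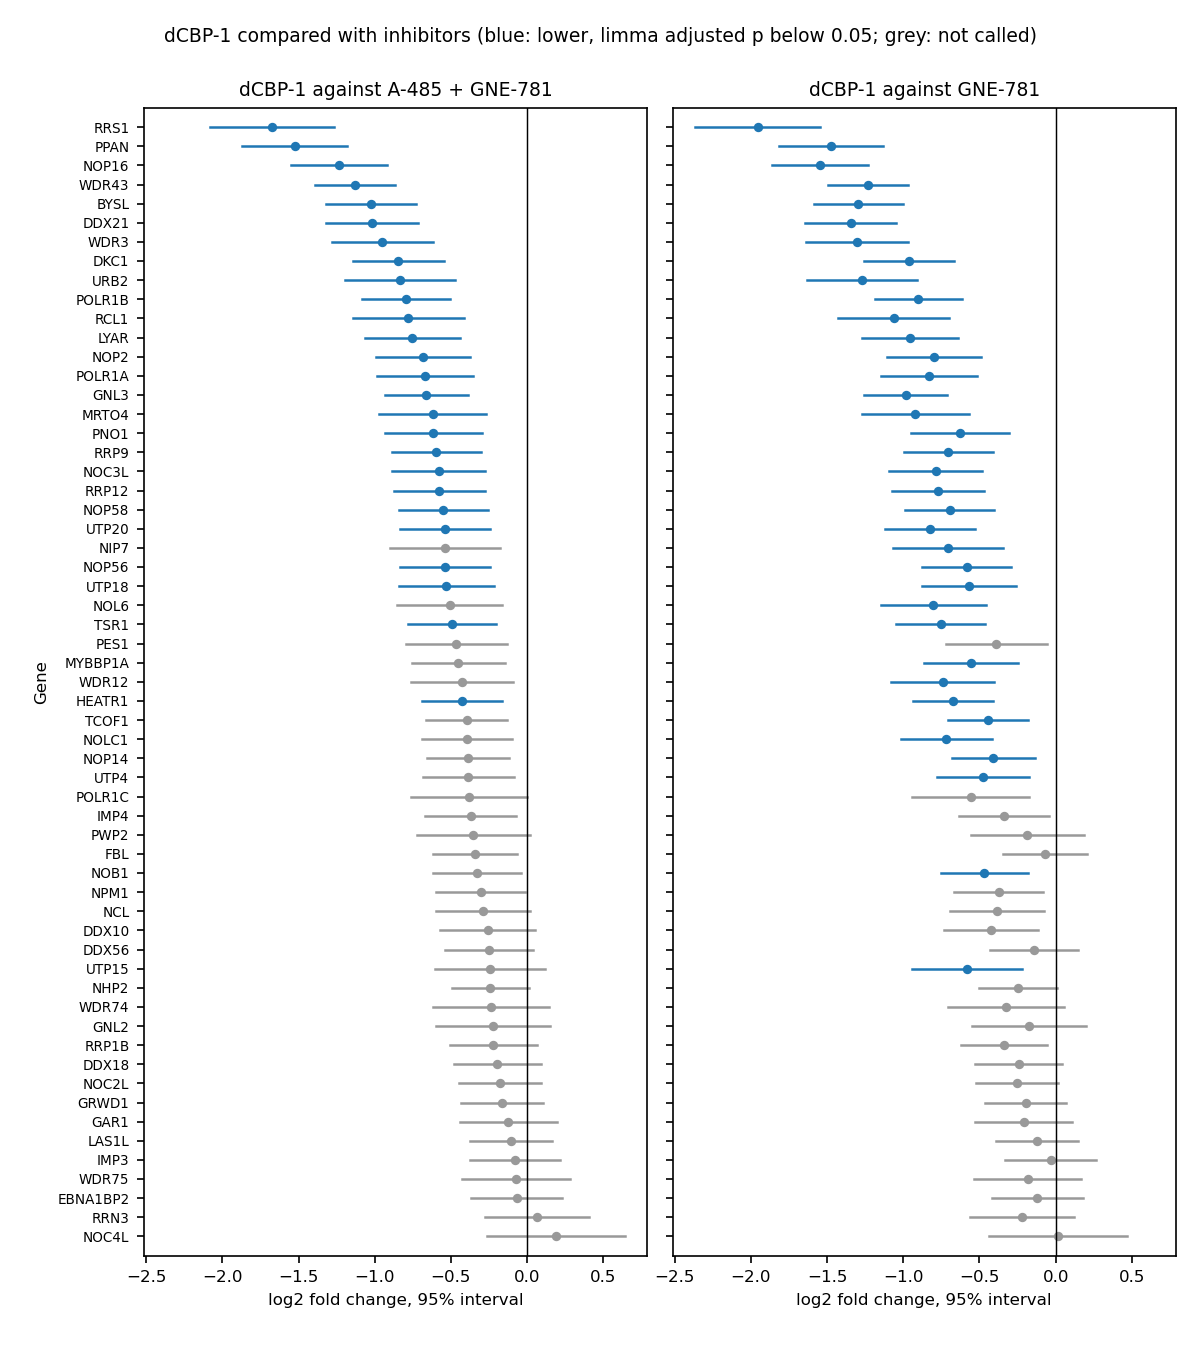
Log2 fold change of 59 genes (rows) with dCBP-1 against the combination (left) and against GNE-781 (right), with 95% intervals on the x axis; blue marks a limma adjusted p below 0.05. All but 2 genes on the left and all but 1 on the right lie below 0, with 26 and 36 in blue.

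Adding A-485 to GNE-781 gave no gene past the threshold in this set or elsewhere: 0 of 59 were lower or higher by limma, 0 by edgeR and 0 by DESeq2, and the share of all genes tested was 0%. At an unadjusted p below 0.05, 6 were lower and 0 higher, and the share of all genes at that level was not counted. The log2 differences ran from -0.44 in URB2 (95% interval -0.80 to -0.07) to 0.27 in FBL (95% interval -0.0016 to 0.55), so that falls of up to 0.80 on the log2 scale in single genes lie inside these intervals.

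GNE-781 and A-485 differed in none of the 59 genes by limma, where 0.727% of all genes were lower and 0.273% higher with GNE-781. At an unadjusted p below 0.05, 10 were lower with GNE-781 and 0 higher. RRP9 had the lowest value, -0.47 ± 0.14 (adjusted p = 0.12, 95% interval -0.76 to -0.17), followed by DKC1 at -0.41 and RRP12 at -0.41. The count of 0 by limma depended on scaling and tool: 6 genes were lower with TMM scaling, 5 with median-ratio scaling, 6 by edgeR and 10 by DESeq2. Shares of all genes at an unadjusted p or under these settings were not counted, so these counts have no background here.

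The rest of the pathway was read from lists of genes outside the 59. Of all genes tested, 18.5% fell and 19.3% rose with dCBP-1 against DMSO, which is the background for the dCBP-1 counts. Among 105 other ribosome biogenesis factors, 46 fell and 12 rose with dCBP-1, with a median of -0.31. By list, 5 of 11 other RNA polymerase I genes fell and 1 rose, 19 of 39 other small-subunit factors fell and 6 rose, 19 of 40 other large-subunit factors fell and 3 rose, and 3 of 15 genes of the nuclear exosome and rRNA trimming fell and 2 rose. The share of exosome and trimming genes that fell was near the background. With the combination 20 of the 105 fell and 11 rose, with GNE-781 15 and 8, and with A-485 1 and 1. Of all genes tested, 9.6% fell and 11.4% rose with the combination, 8.81% and 7.82% with GNE-781, and 1.79% and 0.348% with A-485. Falls made up 19.05% of the 105 with the combination, 14.3% with GNE-781 and 0.95% with A-485. The rises with the combination and GNE-781 were near the background, and the A-485 falls were below it. The next genes were taken from the 105 and the lists of RNA polymerase III subunits and cytosolic ribosomal proteins. There the 4 with the smallest p that fell with dCBP-1 were CCDC86, RRP1, MAK16 and NIFK, all large-subunit factors. CCDC86 dropped from 1801 ± 243 to 222 ± 38.0, a log2 fold change of -3.02 ± 0.15 (adjusted p = 3.9e-16), below that of PPAN. RRP1, MAK16 and NIFK had log2 fold changes of -1.29, -1.51 and -1.29.

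Over the same lists, the 4 with the smallest p that rose were MPHOSPH6, a cofactor of the nuclear exosome (1.22 ± 0.20, adjusted p = 1.8e-05), NGDN, a small-subunit factor (1.02), EXOSC9, a core exosome subunit (0.76), and POLR3GL, a variant subunit of RNA polymerase III (0.90). Of 11 RNA polymerase III subunits 4 fell and 1 rose. The 76 cytosolic ribosomal protein genes, which encode the protein part of the ribosome, held 11 that fell (14.5%) and 10 that rose with dCBP-1, both below the background shares, and their median was 0.10 against 0.07 over all genes.

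**Figure D4:**
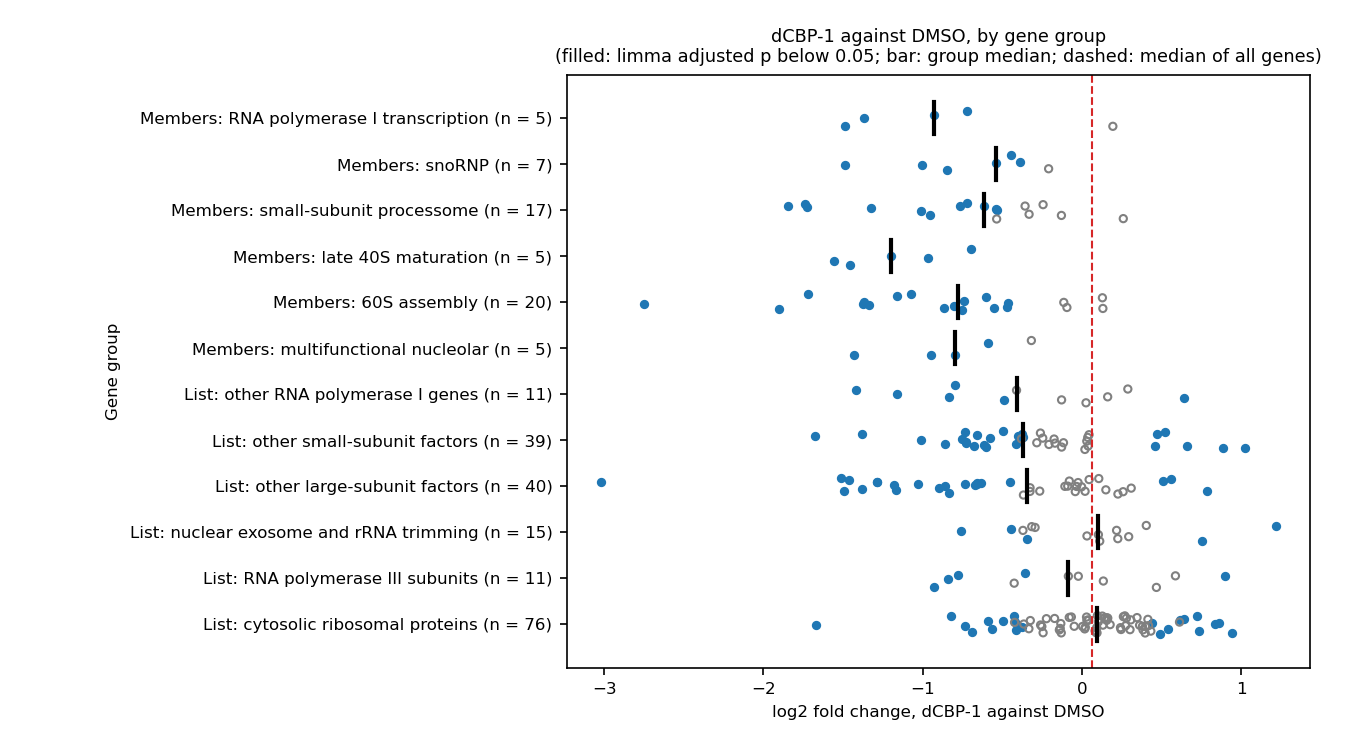
Log2 fold change with dCBP-1 against DMSO (x axis) of each gene (points) in the 6 role groups and 6 further lists (rows); filled points passed a limma adjusted p below 0.05, bars are group medians and the dashed line is the median of all genes, 0.07. The role group medians run from -1.20 in late 40S maturation to -0.54 in snoRNPs, and the cytosolic ribosomal proteins have a median of 0.10.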

How the data were processed

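RNA from MM.1S cells was made into QuantSeq 3′ end libraries, 3 for each of 5 groups, with ERCC spike-in controls added at lysis, per the labels' protocols. This method gives about 1 tag per transcript whatever its length. What the authors deposited is a signal per gene and library, named normalized read counts, on hg19 per the submitters' processing notes. Aligner, counter, strandedness and normalization method are not given in the sources used here. Tested on the values, 100% were whole multiples of 1 step per library (tolerance 0.01), so reads could be recovered. No ERCC row was used, and 1 last row without values was left out. No hg19 annotation was used, so genes carry no positions. Promoter windows are from RefSeq on GRCh38.p14.

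Values were taken as log2(value + 1). Genes at 5 or more in at least 3 libraries were tested, 16104 in all, with limma-trend (limma 3.58.1, R 4.3.3), 1 model of 5 group means, two-sided, Benjamini-Hochberg adjustment over all genes tested, calls being those with adjusted p under 0.05. Fold changes on this scale understate those of low genes. The alternatives were other scalings, pseudocounts and filters, fits on the groups compared only or with a replicate block, edgeR 4.0.16 and DESeq2 1.42.0 on recovered reads, and fits without single libraries. Code was tested on simulated data. The chi-square per degree of freedom between replicates was 5.61 to 46.5, beyond counting error. The members, role groups, lists and tests were chosen with earlier results of these data known. Values per library are given for the 2 members of each role group with the smallest p with dCBP-1 and the member nearest to 0. They are also given for members called with A-485. RRS1, NOC4L and WDR74 were added after their values were seen. Promoters were to be shown for the 3 members with CACGTG that fell most and for the member without it that fell most, and stretches holding another start of the same gene were passed over.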

Additional observations from a re-analysis of the deposited data

How the results depend on the processing

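The count of genes that fell with dCBP-1 against DMSO was 46 and stayed between 44 and 50 under the settings run, and 43 to 46 of the 46 calls were kept in each. No called gene changed sign. With TMM scaling all inhibitor calls were kept, and 5 were added with GNE-781 and 8 with the combination. Median-ratio scaling gave the same numbers. On the recovered reads, edgeR called 2, 17, 32 and 48 genes lower with A-485, GNE-781, the combination and dCBP-1, and DESeq2 called 3, 21, 33 and 50. With A-485 the count of 2 was 1 when only the groups compared were fitted, 1 with the replicate block and 0 with DMSO replicate 3 alone. With 1 library left out, genes that fell numbered 1 to 2 with A-485, 7 to 17 with GNE-781, 14 to 26 with the combination, 44 to 48 with dCBP-1, and 15 to 29 for dCBP-1 against the combination. Genes that rose numbered 0 to 1 with A-485, with GNE-781, with the combination and with dCBP-1. The single riser was RRS1 with A-485 and IMP3 with the others, in each case without DMSO replicate 3. For GNE-781, edgeR and DESeq2 each gave 1, RRN3. For GNE-781 against A-485 the count of 0 was 6 with TMM scaling, 5 with median-ratio scaling, 6 by edgeR and 10 by DESeq2. Shares of all genes were not counted under these settings, except with DMSO replicate 3 alone. The value of WDR75 with dCBP-1, which was not called, ran from -0.29 (without DMSO replicate 1) to 0.0245 (without DMSO replicate 3, adjusted p = 0.93), where its sign changed. Causes were not tested. Among the inhibitor values of named genes that were not called, 20 of 34 changed sign under some setting and none was called with the other sign.

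Same-numbered libraries did not deviate together: the correlations of their deviations ran from -0.16 to 0.10, and 0 of 15 libraries were closest to their own number, so the numbers were not used as a pairing. With the replicate block the counts that fell were 1, 12, 22 and 45 in the order A-485, GNE-781, combination and dCBP-1, against 2, 14, 24 and 46 without it. Among named genes the block ended the A-485 call of RRP9 (adjusted p = 0.059) and the combination calls of BYSL (0.051) and DDX21 (0.066).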
